A study of Mus musculus with 8 samples.

Results

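Metallothioneins and the carriers that move zinc, iron, manganese and copper across membranes were followed in a mouse tumor that had been split by a magnetic column. The 10 genes were taken by name: the metallothioneins Mt1 and Mt2, the NRAMP carriers Slc11a1 and Slc11a2, the ZIP importers Slc39a1, Slc39a8, Slc39a10 and Slc39a14, and the ZnT exporters Slc30a1 and Slc30a4. All 10 were among the 35975 annotated genes and passed the filter on low counts that left 13343 genes for testing. The samples were fibrosarcomas grown under the skin of wild-type C57BL/6 mice (WT C57BL/6 in the labels) from cells of the same strain, and no treatment, age or further allele is given for either fraction. After digestion and lysis of red cells, the column held an iron positive eluate and let an iron negative flowthrough pass. Bulk RNA sequencing gave 4 libraries of each, tagged 3L, 3R, 4R or 5L within each fraction, and 19.04 to 24.31 M estimated counts per library. Whether the tags come from separate animals is not stated, so p-values measure the spread between these libraries.

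Metallothioneins are small cysteine-rich proteins that bind zinc and copper and buffer the free metal in the cytosol. Their genes are switched on by zinc through the transcription factor MTF1, and also by glucocorticoids, hypoxia and oxidants. ZIP proteins bring divalent metal into the cytosol and ZnT proteins take it out or into vesicles. In macrophages NRAMP1 (Slc11a1) empties the phagosome of divalent metal and NRAMP2, or DMT1 (Slc11a2), lets ferrous iron out of endosomes. C57BL/6 mice carry a loss-of-function allele of Slc11a1, so its transcript level here is not a level of working protein.

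The promoters of the metallothionein genes are shown because the 2 genes are neighbours on mouse chromosome 8 (GRCm38, the assembly of mm10) and only Mt2 passed the test between the fractions. Mt2 lies at 94172664 to 94173568 and Mt1 at 94179082 to 94180327, both on the plus strand, with 5513 bases between them. Slc30a1, a zinc exporter that MTF1 is known to control, is shown beside them (chromosome 1, 191906767 to 191913247, plus strand). Each window runs from 250 bases before to 50 bases after the RefSeq start (GRCm38.p6). That start can differ from the gene start given above: the Mt2 window ends at 94172667, just past the gene start of 94172664. Capitals mark the core of the metal response element, TGCACNC or TGCGCNC, on either strand.

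Mt1 (chr8:94178839-94179138): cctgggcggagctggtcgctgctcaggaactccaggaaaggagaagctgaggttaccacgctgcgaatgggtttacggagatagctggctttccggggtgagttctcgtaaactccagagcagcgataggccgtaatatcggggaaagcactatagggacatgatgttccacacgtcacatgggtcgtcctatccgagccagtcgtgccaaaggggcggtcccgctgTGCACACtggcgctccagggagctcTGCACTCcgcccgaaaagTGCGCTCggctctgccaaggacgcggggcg

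Mt2 (chr8:94172368-94172667): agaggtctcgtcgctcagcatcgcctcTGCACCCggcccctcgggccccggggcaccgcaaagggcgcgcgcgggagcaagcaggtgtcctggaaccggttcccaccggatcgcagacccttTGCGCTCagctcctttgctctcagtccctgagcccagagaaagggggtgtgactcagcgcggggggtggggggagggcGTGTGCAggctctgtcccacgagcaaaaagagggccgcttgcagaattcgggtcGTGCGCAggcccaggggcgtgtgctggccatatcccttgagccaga

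Slc30a1 (chr1:191906531-191906830): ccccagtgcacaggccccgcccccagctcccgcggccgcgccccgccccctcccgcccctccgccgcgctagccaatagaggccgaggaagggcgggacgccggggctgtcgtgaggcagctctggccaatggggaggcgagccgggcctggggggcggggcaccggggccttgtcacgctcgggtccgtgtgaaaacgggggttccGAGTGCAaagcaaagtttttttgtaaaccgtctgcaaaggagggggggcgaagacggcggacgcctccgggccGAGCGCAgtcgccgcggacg

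The Mt1 window held 3 matches, all on the plus strand, and the Mt2 window held 4, of which 2 were on the plus strand. The Slc30a1 window held 2. Of 32851 RefSeq promoter windows of this length, 25.7% held at least 1 match, 7.11% at least 2, 1.97% at least 3 and 0.517% at least 4. Windows were found for 8 of the 10 genes, but not for Slc11a2 or for Slc39a14, which passed the test between the fractions. That of Slc30a4 held 3 matches, while 1 of the windows of Slc39a8 held 1 and those of Slc11a1, Slc39a1 and Slc39a10 held none. An antioxidant element, written here as TGACNNNGC on either strand, was present once in the windows of Mt2, Slc30a1 and Slc39a1 and in 1 of the windows of Slc39a8, and in 12.4% of all windows. Matches outside the windows were not counted, so these are not counts over whole promoters. Mt1 has 3 annotated transcripts and its window follows 1 start, so the counts do not rank the promoters of Mt1 and Mt2. A match is a run of letters and was not tested as a binding site.

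Of the 10 genes, 2 rose in the iron positive libraries, Mt2 and Slc39a14, and none fell at an adjusted p under 0.05 (edgeR, Benjamini-Hochberg adjustment over all genes tested). That fit ignored the tags. With the tag as a block edgeR called Mt2 and Slc30a4 (adjusted p = 0.0461), while Slc39a14 did not pass (0.0501). Over all genes tested, 8.49% were called higher and 5.21% lower, that is 1133 and 695 genes, and 62% of the calls were higher. The median log2 fold change (iron positive minus iron negative throughout) was 0.09 over the 10 genes and -0.01 over all genes tested. Scaling to library totals gave 1172 higher and 362 lower genes, and scaling to 11 macrophage markers gave 1322 and 18 and moved the median of all genes to 0.17. The 10 genes are too few to set a count of 2 apart from that share. DESeq2 called 3 of the 10, limma voom none, and edgeR none without any 1 iron negative library (3L, 3R, 4R or 5L) or without iron positive 4R, and 1 without iron positive 3R. Without iron negative 3L, 3R or 4R edgeR called 0 of all genes tested, and without iron negative 5L it called 26 higher and 12 lower. Calls lost in those fits, here and below, are therefore not particular to these genes. At an unadjusted p under 0.05 in the main fit, 3 of the 10 genes were higher and none lower, against 17.1% and 14.0% of all genes tested.

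Marker transcripts moved with the fractions and are given here beside the values that follow. The 11 macrophage markers summed to 27809 to 28131 CPM (counts over the library total in M) in the iron negative and 22044 to 27516 CPM in the iron positive libraries. All 11 were detected, 4 were called lower, among them Csf1r, and 0 were called higher. Their median log2 fold change was -0.28, and 3 of the 11 had a positive value. The series names macrophages as its subject, and these markers were abundant in both fractions. All 13 endothelial markers were called higher, and their sum went from 65.99 to 119 CPM up to 228 CPM (3L), 1865 (3R), 1130 (4R) and 308 (5L). Pericyte markers (27.6 to 63.5 CPM against 95.1 to 798 CPM), fibroblast and fibrosarcoma markers (477 to 770 against 1052 to 5909 CPM), neutrophil markers (88.4 to 121 against 206 to 667 CPM) and skeletal muscle markers (6.99 to 10 against 26.03 to 71.3 CPM) were also higher in every iron positive library. Their part in the results was not tested. In bulk RNA fewer cells of a type and less RNA per cell cannot be told apart.

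Mt2, a metallothionein found in most tissues, rose in the iron positive libraries. In the iron negative libraries it stood at 26.3 CPM (3L), 19.1 (3R), 15.1 (4R) and 23.9 (5L), and in the iron positive ones at 74.5, 62.4, 37.5 and 29.98 CPM in the same order, all TMM-scaled. Every iron positive library lay above every iron negative one, but 5L only slightly so. How common such separation is among all genes tested was not counted, for Mt2 or for the genes below. The means were 21.1 ± 5.0 and 51.1 ± 20.9 CPM (SD, n = 4 each), a log2 fold change of 1.27 ± 0.30 (SE), which passed in edgeR (adjusted p = 0.0297). Within tags the log2 ratio was only 0.33 in 5L, against 1.31 in 4R, 1.5 in 3L and 1.71 in 3R. The value stayed between 1.03 and 1.47 under all 19 alternatives, but it was not called with limma voom (adjusted p = 0.0664), or in edgeR without iron negative 3L (adjusted p = 0.0666), 3R (0.0818), 4R (0.0833) or 5L (0.0738) or without iron positive 4R (0.0514). On the tags 3L and 5L, whose iron positive libraries had the lowest endothelial sums, it was 1.05 with adjusted p = 0.258 in edgeR. These tags were chosen after seeing the data. A call can be lost there through fewer libraries alone, so nothing is read from it, for Mt2 or for the genes below. Among the iron positive libraries the order of Mt2 was 3L, 3R, 4R and 5L from high to low. The endothelial sum ran 3R, 4R, 5L and 3L, and the skeletal muscle sum 3R (71.3 CPM), 3L (52.7), 4R (32.4) and 5L (26.03). The part of those cells in the result was not tested.

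Mt1 did not pass. It stood at 232 CPM (3L), 184 (3R), 168 (4R) and 245 (5L) in the iron negative libraries and at 268, 165, 160 and 234 CPM in the iron positive ones in the same order. The ranges overlapped widely, and the libraries of tags 3L and 5L were the higher ones in both fractions. The means were 207 ± 37 and 207 ± 53 CPM (SD, n = 4 each), with a log2 fold change of -0.00 ± 0.19 (SE; adjusted p = 0.99 in edgeR). Its sign depended on the setting: it was 0.05 with library totals and 0.15 with the macrophage scaling, where the median gene stood at 0.17.

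**Figure D1:**
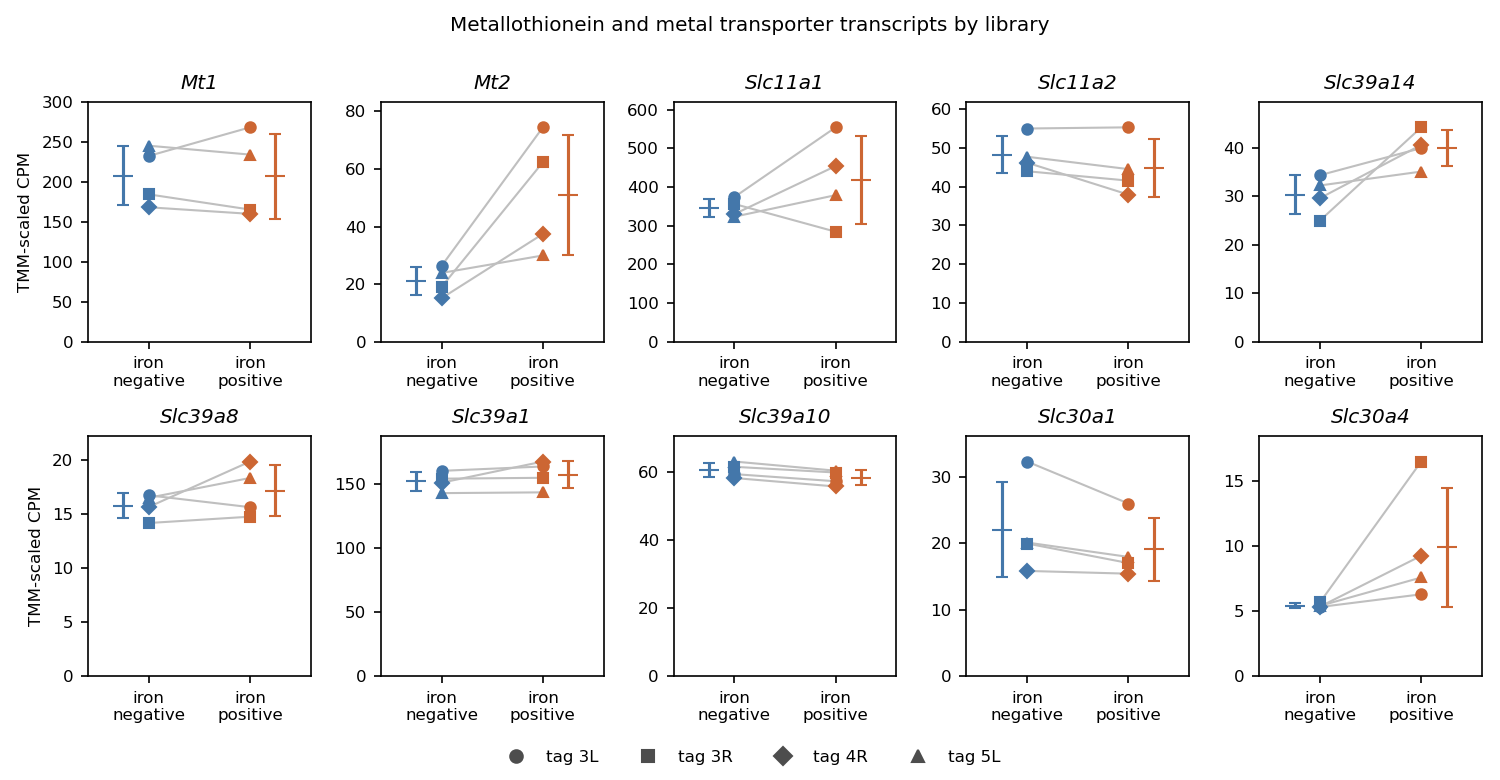
Level of each gene in the 8 libraries (y axis, TMM-scaled CPM from 0), iron negative in blue and iron positive in orange, with a grey line joining libraries of equal tag and, beside the points, the mean with its SD over 4 libraries. On this scale Mt2, Slc39a14 and Slc30a4 have no overlap between the fractions, and Mt2 spreads from 29.98 to 74.5 CPM in the iron positive libraries. In TPM Slc39a14 overlaps. How common such separation is among all genes tested was not counted.

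The share of Mt1 in the 2 metallothioneins was lower in the iron positive libraries. With Mt1 level on average and Mt2 higher, this follows from the values above and is not a separate finding. On the TPM scale, which corrects for transcript length, Mt1 made up 88.2% (3L), 88.8% (3R), 90.1% (4R) and 89.1% (5L) of Mt1 plus Mt2 in the iron negative libraries. In the iron positive ones its share was 74.8% (3L), 67.7% (3R), 77.3% (4R) and 86.2% (5L). The iron negative shares lay within 2 percentage points of each other, and all 4 iron positive shares were below them. The mean fell from 89.0% ± 0.8 to 76.5% ± 7.6 (SD, n = 4 each), a difference of -12.5 percentage points with p = 0.0286 in a two-sided exact permutation test, the smallest p that 4 against 4 libraries allow. With the tags paired, the exact sign-flip test of the 4 differences gave p = 0.125, the smallest it can give. Without any 1 iron negative library (3L, 3R, 4R or 5L) the exact permutation p was 0.0571.

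Summed, the 2 genes came to 994 TPM (3L), 848 (3R), 759 (4R) and 1148 (5L) in the iron negative and to 1358, 986, 873 and 1196 TPM in the iron positive libraries. On this scale the sum was higher in the iron positive library of every tag. In TMM-scaled CPM it was lower there in 5L, at 264 against 269 CPM, and higher in the other 3 tags. The estimated counts of Mt1 and of Mt2 were whole numbers in all 8 libraries, within 0.01 of a count, once summed over each gene's transcripts. Behind the values lay 3279 to 5637 estimated counts for Mt1 and 338 to 1494 for Mt2 per library.

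**Figure D2:**
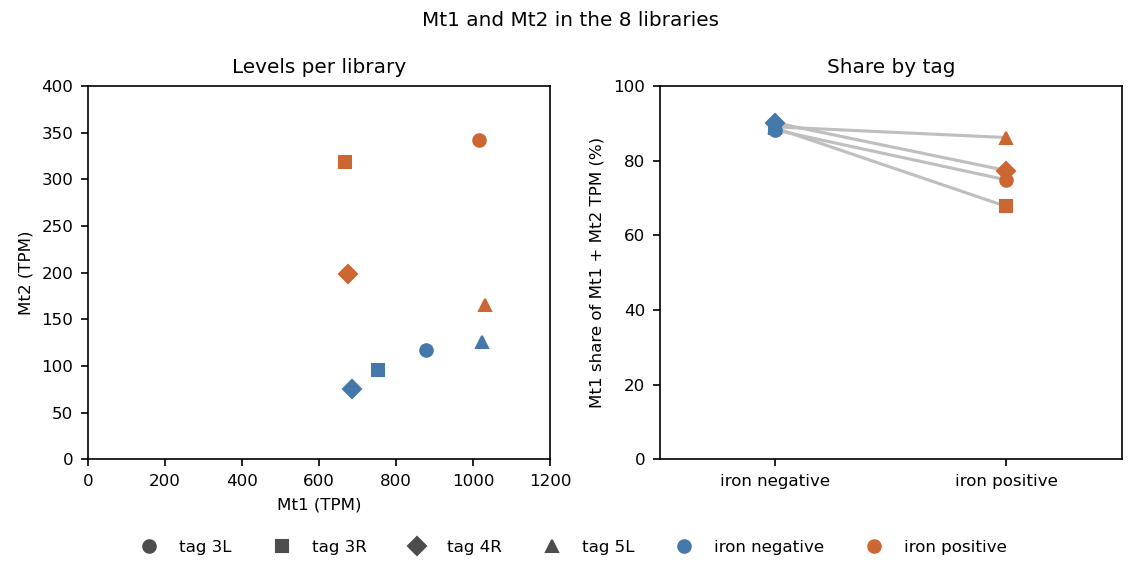
Left, Mt2 against Mt1 in TPM for the 8 libraries. Right, the share of Mt1 in the sum of both in percent, from 0 to 100, with lines joining equal tags. The iron negative libraries lie between 88.2% and 90.1%, and the iron positive ones between 67.7% and 86.2%.

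Slc39a14 encodes ZIP14, an importer of zinc, manganese and iron that is not bound to transferrin (chromosome 14, 70303469 to 70351425, minus strand). It stood at 34.4 CPM (3L), 25.0 (3R), 29.6 (4R) and 32.3 (5L) in the iron negative and at 40.0, 44.3, 40.6 and 35.1 CPM in the iron positive libraries. The fractions did not overlap, although iron positive 5L came within 1 CPM of iron negative 3L. It rose from 30.3 ± 4.0 to 40.0 ± 3.8 CPM (SD, n = 4 each), a log2 fold change of 0.40 ± 0.11 (SE), which passed in edgeR (adjusted p = 0.0448). This was close to the threshold: adjusted p was 0.0501 with the tag as a block in edgeR and 0.071 with limma voom, and of the fits without 1 library only that without iron positive 5L kept the call (0.028). The lost calls came without iron negative 3L (0.0619), 3R (0.0837), 4R (0.109) and 5L (0.0849) and without iron positive 3L (0.0693), 3R (0.0777) and 4R (0.108). The fits without iron negative 3L, 3R or 4R called 0 of all genes tested. On the tags 3L and 5L alone, chosen after seeing the data, the value of Slc39a14 was 0.17 (adjusted p = 0.528 in edgeR).

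On the TPM scale the fractions of Slc39a14 overlapped, at 11.3 to 23.1 TPM against 15.6 to 25.7 TPM, and limma on log2(TPM + 0.1) gave 0.24 with adjusted p = 0.558. The gene has 13 annotated transcripts in the tables, and those that are not protein coding held 27.8% of its TPM in the iron negative and 24.3% in the iron positive libraries on average. Its most abundant coding form, Slc39a14-202, stood at 7.51 TPM (3L), 5.76 (3R), 6.78 (4R) and 7.12 (5L) in the iron negative and at 8.21, 10.3, 10.05 and 8.30 TPM in the iron positive libraries, with no overlap. That transcript was singled out after its values were seen. Its share of the gene went from 40.4% ± 8.3 to 46.5% ± 11.9 (SD, n = 4 each; exact permutation p = 0.514).

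The other ZIP importers among the 10 did not pass. Slc39a8, or ZIP8, a carrier of zinc, manganese and cadmium (chromosome 3, 135825279 to 135888572, plus strand), ranged from 14.2 to 16.7 CPM in the iron negative and from 14.8 to 19.9 CPM in the iron positive libraries (log2 fold change 0.12 ± 0.11 SE, adjusted p = 0.504 in edgeR). Slc39a1, or ZIP1, a zinc importer of the plasma membrane (chromosome 3, 90248172 to 90253612, plus strand), ranged from 143 to 160 and from 143 to 167 CPM. Its log2 fold change was 0.05 ± 0.07 (SE; adjusted p = 0.65 in edgeR). Slc39a10, or ZIP10, a zinc importer (chromosome 1, 46807544 to 46892852, minus strand), was at 58.1 to 63.0 CPM and at 55.6 to 60.3 CPM, and lower in the iron positive library of all 4 tags. The difference was -0.05 ± 0.05 (SE; adjusted p = 0.497 in edgeR), and it was 0.00 with library totals and 0.13 with the macrophage scaling.

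Slc30a4 encodes ZnT4, which loads zinc into vesicles and lysosomes (chromosome 2, 122681233 to 122702663, minus strand). Its iron negative values were 5.30 CPM (3L), 5.65 (3R), 5.33 (4R) and 5.39 (5L). For their mean they were the most even of the 10 genes on this scale. They were not in TPM (1.44 ± 0.15, against 15.3 ± 0.5 for Slc39a10, SD, n = 4 each). The iron positive values of Slc30a4 were 6.28 CPM (3L), 16.5 (3R), 9.24 (4R) and 7.57 (5L). All 4 lay above the iron negative ones, and 3R stood far above the rest. The log2 fold change of 0.87 ± 0.28 (SE) did not pass with edgeR (adjusted p = 0.0736). It did with the tag as a block (0.78, adjusted p = 0.0461 in edgeR) and with DESeq2 (0.87, adjusted p = 0.0226). Without iron positive 3R the value was 0.51 (adjusted p = 0.0674 in edgeR), and without iron positive 3L it was 1.02 and passed (0.0345). In the iron positive libraries its order, 3R, 4R, 5L and 3L from high to low, was that of the summed endothelial, pericyte and fibroblast markers, whose part in the result was not tested. Its counts, 116 to 327 per library, were on average the lowest of the 10 genes in both fractions.

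Slc30a1 encodes ZnT1, the zinc exporter of the plasma membrane. It stood at 32.3 CPM (3L), 20.0 (3R), 15.9 (4R) and 20.1 (5L) in the iron negative and at 26.0, 17.0, 15.4 and 17.96 CPM in the iron positive libraries. Tag 3L was highest in both fractions, and each iron positive library was the lower one of its tag. The difference of -0.21 ± 0.24 (SE) did not pass (adjusted p = 0.597 in edgeR), was -0.04 with the macrophage scaling and turned to 0.04 without iron negative 3L.

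**Figure D3:**
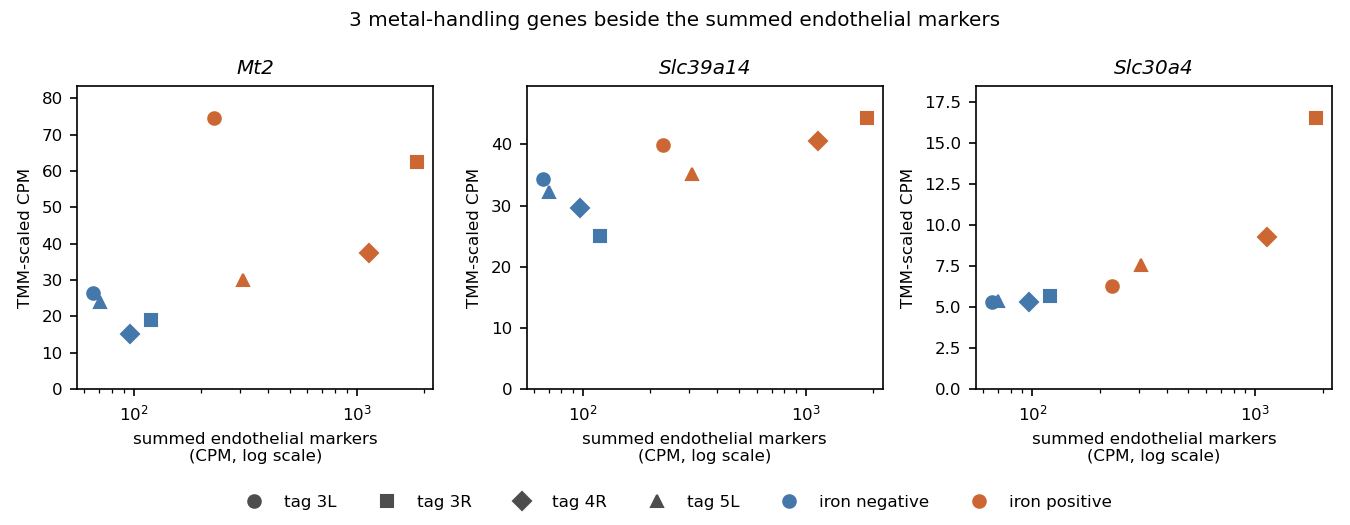
TMM-scaled CPM of Mt2, Slc39a14 and Slc30a4 (y axes, from 0) against the summed CPM of 13 endothelial markers (x axes, log scale) in the 8 libraries. Slc30a4 is highest in iron positive 3R, where the marker sum is 1865 CPM, and Mt2 is highest in iron positive 3L, where it is 228 CPM.

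Slc11a1 was the most abundant transporter of the 10 per length (chromosome 1, 74375195 to 74386062, plus strand). It stood at 374 CPM (3L), 356 (3R), 330 (4R) and 323 (5L) in the iron negative and at 554, 284, 454 and 379 CPM in the iron positive libraries. Iron positive 3R was below all iron negative libraries, and the other 3 iron positive libraries were above them. The log2 fold change was 0.27 ± 0.18 (SE; adjusted p = 0.345 in edgeR). Without iron positive 3R it was 0.42 (adjusted p = 0.0653 in edgeR) and without iron positive 3L it was 0.10. Iron positive 3R was also the library with the lowest sum of macrophage markers, 22044 CPM. Of the 11 annotated transcripts of the gene 2 are protein coding, and those that are not held 70% of its TPM in the iron negative and 67.3% in the iron positive libraries. The coding form Slc11a1-201 stood at 140 TPM (3L), 140 (3R), 126 (4R) and 123 (5L) in the iron negative and at 209, 116, 206 and 155 TPM in the iron positive libraries, the same pattern as the gene. Its share of the gene was 28.4% ± 1.9 and 31.1% ± 3.5 (SD, n = 4 each; exact permutation p = 0.286).

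Slc11a2 (chromosome 15, 100387898 to 100425072, minus strand) ranged from 44.0 to 55.0 CPM in the iron negative and from 37.9 to 55.3 CPM in the iron positive libraries, with a log2 fold change of -0.11 ± 0.12 (SE; adjusted p = 0.596 in edgeR). The sign was not stable, with 0.07 under the macrophage scaling and 0.12 on log2(TPM + 0.1). The gene is made in forms with and without an iron responsive element, a hairpin in the 3′ untranslated region that iron regulatory proteins bind when iron is scarce. The element is shown because it tells the 2 long coding forms apart. It was found by script in 1 of 8 transcripts, Slc11a2-205, in exon 16 at chr15:100395152-100395181 (GRCm38, minus strand). The search asked for a loop of CAGTGN with no G as the last base, on top of a stem of 5 pairs. It asked for an unpaired C below the stem on its 5′ side, and allowed 1 unpaired base on the 3′ side of the stem. Capitals mark the loop.

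Slc11a2-205: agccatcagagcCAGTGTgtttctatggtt

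The form with the element, Slc11a2-205, stood at 7.02 TPM (3L), 4.82 (3R), 5.64 (4R) and 6.05 (5L) in the iron negative and at 6.89, 4.82, 4.36 and 5.55 TPM in the iron positive libraries. The long form without it, Slc11a2-201, stood at 10.9, 11.3, 11.5 and 10.6 TPM and at 11.3, 11.4, 9.92 and 9.81 TPM in the same order. The form with the element thus made up 34.6% ± 4.0 of the sum of the 2 in the iron negative and 33.6% ± 4.0 in the iron positive libraries (SD, n = 4 each). Same-tag libraries were close: 39.2% and 37.9% in 3L, 29.96% and 29.8% in 3R, 32.8% and 30.6% in 4R, 36.4% and 36.2% in 5L. These shares are a description, chosen after the values were seen. As shares of all Slc11a2 transcripts, the forms differed by -3.32 percentage points (Slc11a2-205, exact permutation p = 0.171) and -4.23 percentage points (Slc11a2-201, p = 0.457). Over 7 of the 10 genes, 24 transcripts that each held at least 5% of their gene were tested this way, and none passed or reached an unadjusted p under 0.05 (smallest exact permutation p = 0.143, smallest adjusted p = 0.814).

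**Figure D4:**
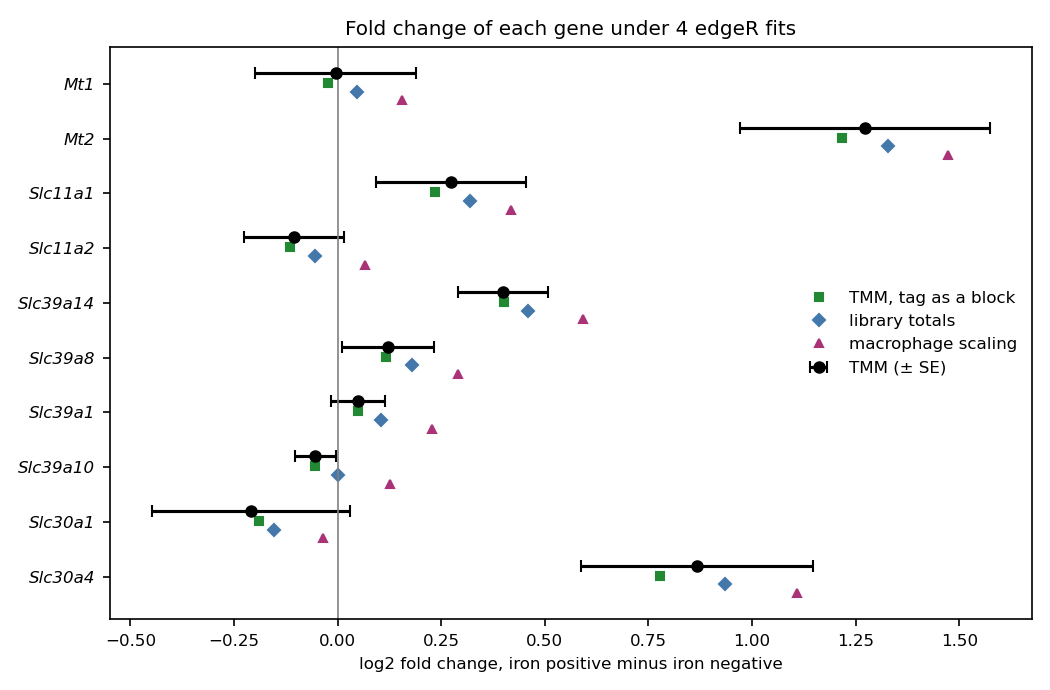
Log2 fold change of each gene (x axis, iron positive minus iron negative) from 4 edgeR fits: TMM scaling with its SE as the bar, TMM with the tag as a block, library totals, and scaling to macrophage markers. Mt2 stands at 1.27 with TMM and between 1.22 and 1.47 in the others, while Mt1, Slc11a2 and Slc39a10 lie on both sides of 0.

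Compared per length, the order of the 10 genes was the same in both fractions. In TPM it ran from Mt1 (834 ± 149 in the iron negative and 848 ± 203 in the iron positive libraries, SD, n = 4 each) through Slc11a1 (468 ± 48 and 550 ± 126), Mt2 (103 ± 23 and 256 ± 87) and Slc39a1 (88.1 ± 4.0 and 94.6 ± 8.3). Below these came Slc11a2 (26.9 ± 2.8 and 29.5 ± 5.5), Slc39a14 (17.5 ± 4.8 and 20.5 ± 4.1) and Slc39a10 (15.3 ± 0.5 and 14.8 ± 1.0). The lowest were Slc39a8 (6.48 ± 0.38 and 7.35 ± 1.24), Slc30a1 (5.93 ± 1.79 and 4.99 ± 0.89) and Slc30a4 (1.44 ± 0.15 and 2.71 ± 1.29). In the iron negative libraries Mt2 and Slc39a1, Slc39a14 and Slc39a10, and Slc39a8 and Slc30a1 overlapped within 1 SD. In the iron positive ones Mt2 lay above Slc39a1 in every library, and of the neighbours Mt1 and Slc11a1 as well as Slc11a2 and Slc39a14 overlapped within 1 SD.

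Over 7 lists of related genes, 5 of 48 tested genes were called (10.4%), against 13.7% of all genes tested in either direction. Of 10 further ZIP genes 9 were tested and none passed, with a median log2 fold change of -0.02. Their most abundant members per length were Slc39a7, or ZIP7, which releases zinc from the endoplasmic reticulum (140 ± 5 to 154 ± 16 CPM, 0.14, adjusted p = 0.258 in edgeR), and Slc39a13, or ZIP13 (35.7 ± 0.6 to 37.5 ± 1.8 CPM, 0.07, adjusted p = 0.399). Of 8 further ZnT genes 4 were tested and none passed (median -0.05), with Slc30a5, a zinc loader of the secretory pathway, at -0.09 (adjusted p = 0.271 in edgeR) and Slc30a9 at -0.03 (0.621). Slc30a2, Slc30a3 and Slc30a8 had at most 3 estimated counts in any library and Slc30a10 was listed at 0 in all 8.

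Mt3, a metallothionein best known from the brain, rose from a very low level. It stood at 0.22 CPM (3L), 0.10 (3R), 0.22 (4R) and 0.09 (5L) in the iron negative and at 5.83, 0.50, 2.27 and 0.62 CPM in the iron positive libraries. All 4 iron positive values were above the iron negative ones, and 3L stood far above the rest. The log2 fold change was 3.82 ± 0.90 (SE; adjusted p = 0.029 in edgeR). It lost the call without any iron negative library (3L, 0.0794; 3R, 0.08; 4R, 0.0775; 5L, 0.0839) or without iron positive 4R (0.0669), with limma voom (0.128) and with limma on log2(TPM + 1) (0.0627). Without iron positive 3L the log2 fold change was 2.80 (adjusted p = 0.0332 in edgeR). On the tags 3L and 5L alone it was 4.33 (0.154), and the gene was below the filter of 1 CPM in 4 libraries. Mt4 was listed at 0 in all 8 libraries. Mtf1, the zinc sensor that drives metallothionein transcription, was at 23.7 and 23.5 CPM on average (log2 fold change -0.01, adjusted p = 0.934 in edgeR).

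Of 9 copper genes 8 were tested, none rose and 1 fell (median 0.05). Atox1, the chaperone that hands copper to the secretory pathway pumps, fell from 151 ± 11 to 125 ± 9 CPM (-0.27 ± 0.07 SE, adjusted p = 0.0449 in edgeR) and was lower in all 4 tags. Scaled to the macrophage markers, where the median gene stood at 0.17, it was -0.09 (adjusted p = 0.597 in edgeR). Its call was lost in 14 of 19 alternatives, and of the fits with 1 library left out only that without iron positive 3L kept it (0.0415). Of 8 organelle transporters of divalent ions only Mcoln2 rose and none fell (median 0.09). Mcoln2, a cation channel of endosomes and a relative of the lysosomal iron channel Mcoln1, was at 2.47 CPM (3L), 3.12 (3R), 4.07 (4R) and 2.52 (5L) in the iron negative and at 24.5, 6.05, 24.6 and 6.25 CPM in the iron positive libraries (2.33 ± 0.52 SE, adjusted p = 0.0259 in edgeR). Iron positive 3L and 4R were the high libraries, as they were for the summed neutrophil markers (536 and 667 CPM against 220 in 3R and 206 in 5L). Its part in that result was not tested. The call was lost without any 1 iron negative library (adjusted p = 0.0679 to 0.081 in edgeR) or without iron positive 4R (0.0677), with limma voom (0.133) and on the tags 3L and 5L alone (0.109 in edgeR).

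None of the 9 genes that control DMT1 or its iron supply passed (median 0.07). Ndfip1 came nearest to the threshold (0.21, adjusted p = 0.0508 in edgeR). Pcbp1 and Pcbp2, chaperones that deliver iron, were at -0.16 (adjusted p = 0.224 in edgeR) and -0.15 (0.142). Nedd4, a ubiquitin ligase, had the largest value of that list, 37.2 to 116 CPM on average (1.64 ± 0.59 SE, adjusted p = 0.0973 in edgeR), and is named after its value was seen. Among 8 genes of the glucocorticoid response, which also induces metallothioneins, Klf9 rose (8.33 ± 0.82 to 16.7 ± 4.6 CPM, 1.01 ± 0.19 SE, adjusted p = 0.0183 in edgeR) and Fkbp5 fell (105 ± 4 to 87.8 ± 6.6 CPM, -0.25 ± 0.06 SE, adjusted p = 0.0362). The median of the list was -0.16. Klf9 was highest in iron positive 3R, at 23.2 CPM, and its call was lost without iron negative 3L (adjusted p = 0.0619 in edgeR), 3R (0.0526), 4R (0.063) or 5L (0.0545). Fkbp5 was -0.07 with the macrophage scaling and -0.20 with library totals and passed in neither (adjusted p = 0.786 and 0.128 in edgeR), and with 1 library left out it kept its call only without iron positive 3R (0.0215) or 5L (0.0434).

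**Figure D5:**
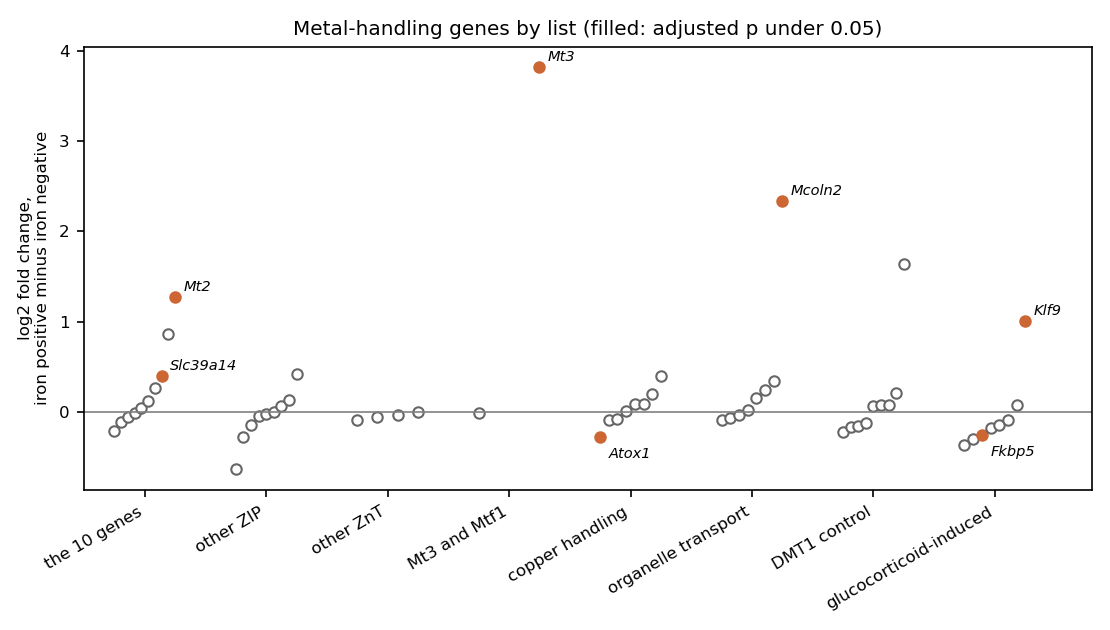
Log2 fold change (y axis, iron positive minus iron negative) of each tested gene in the 10 genes and 7 further lists, where each point is a gene and filled points have an edgeR adjusted p under 0.05. Filled points are Mt2, Slc39a14, Mt3, Mcoln2 and Klf9 above 0 and Atox1 and Fkbp5 below it.

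The genes nearest to Mt2 in profile were Ddit4, Ak1 and mt-Nd3. Likeness was the root mean square difference of log2(CPM + 0.5) over the 8 libraries after centring, where smaller is closer, and it was 0.24, 0.27 and 0.29 against a spread of Mt2 itself of 0.78 (SD). Ddit4, a stress-induced inhibitor of mTORC1, stood at 98.1 CPM (3L), 67.7 (3R), 39.2 (4R) and 62.1 (5L) in the iron negative and at 214, 143, 124 and 104 CPM in the iron positive libraries (1.13 ± 0.30 SE, adjusted p = 0.041 in edgeR). Nearest to Mt1 were Pirt (0.10), a gene of very low level here (0.54 CPM on average in the flowthrough), Pim3 (0.12) and Cass4 (0.12), against a spread of 0.30 for Mt1. Pim3, a serine kinase, had its higher levels in 3L and 5L of both fractions (114 and 105, then 118 and 106 CPM), as did Mt1. Nearest to Slc39a14 were Lrrc58 (0.07), 4921524J17Rik (0.07) and Anxa1 (0.08), against 0.26 for Slc39a14 itself. Anxa1, the phospholipid-binding annexin induced by glucocorticoids, rose from 176 to 226 CPM on average (0.36 ± 0.09 SE, adjusted p = 0.0318 in edgeR). The nearest genes were picked on these same 8 libraries. Fold changes like those of Mt2 and Slc39a14 therefore follow from the choice and are a description.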

How the data were processed

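RNA of 4 iron positive and 4 iron negative libraries was compared, grouped by the labels. The submitters' processing notes name kallisto 0.46.2 and mm10, with the transcript set's release not given in the sources used here. Per the file headers, the deposited tables give each transcript its estimated counts, which are not normalized, and TPM values, scaled by effective length and library total, with transcript lengths in bases as other values. Transcripts were joined to GENCODE release 21 for mouse by identifier without version (116728 of 119414 matched, and the rest held 0.888% to 0.961% of counts), summed per gene without regard to strand, and the counts rounded.

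Genes were kept with filterByExpr, scaled by TMM and tested with the quasi-likelihood test of edgeR 4.0.16 (R 4.3.3) on fraction alone, with Benjamini-Hochberg adjustment over all 13343 genes. CPM are TMM-scaled, except marker sums, which are over the total of matched counts. SEs are approximate, from the coefficient and its F. The fit was tested on simulated data with known changes. limma 3.58.1, DESeq2 1.42.0, other scalings, filters and libraries left out were alternatives. Transcript shares were compared with exact permutation tests (two-sided). Precision is the SD over 4 libraries, and depth is given with the counts.

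The members and lists were chosen with earlier results of these data known. Named genes are the 10 members, of each list the members past the threshold (at most 4, by size of change) or the 2 most abundant, and for Mt1, Mt2 and called members the 3 nearest profiles. Equal tags in the labels were checked as pairs: same-tag libraries correlated, in deviations from the fraction mean across genes, at 0.55 (3L), 0.55 (3R), 0.28 (4R) and 0.33 (5L), against highest values with another tag of 0.11, 0.19, 0.26 and 0.26 in that order, so that 4R stood hardly above another tag, and values from a fit blocked on tag are given where they change a call. No 2 libraries of a fraction agreed within counting noise.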

Additional observations from a re-analysis of the deposited data

Results flagged for a closer look

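The members, the list genes named by rule and the Mt1 share were checked in each fraction, but not the nearest profiles. In these 44 groups of 4 libraries, 2 held a library far from the other 3 by Dixon's test at 95%, a rate that chance alone gives at about 1 in 20 groups. Slc39a13 was lowest in iron negative 3L, at 34.9 CPM against 35.9 CPM for the next library. Pcbp1 was highest in iron positive 3L, at 306 CPM against 284 CPM for the next. Neither gene passed the test between fractions.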

How the results depend on the processing

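Of the 10 genes, 2 were called higher with TMM. The number was 2 with the tag as a replicate block, where Slc39a14 gave way to Slc30a4, 0 with limma voom, 1 without a filter, 1 on log2(TPM + 0.1), 1 on log2(TPM + 1), 3 with DESeq2, 0 on the tags 3L and 5L (chosen after seeing the data) and 0 to 2 with 1 library left out. None was called lower in any of the 19 alternatives; at an unadjusted p under 0.05, 1 was lower without iron positive 3L and 1 with the block. The Mt1 share difference was -12.5 percentage points with exact p = 0.125 in the paired (replicate block) test on 4 pairs, and -15.7 to -9.59 with 1 library left out. Mt2, Slc11a1, Slc39a14, Slc39a8, Slc39a1 and Slc30a4 kept a positive value in all 19 alternatives. Over all genes, calls numbered 1133 higher and 695 lower with TMM, 1705 and 1253 with the block, 1703 and 1070 with DESeq2, 189 and 273 with voom, 1172 and 362 with library totals, 1322 and 18 with the macrophage scaling, 1309 and 560 without a filter, 706 and 270 or 413 and 205 on the TPM scales and 321 and 7 on 3L and 5L. Without iron negative 3L, 3R or 4R edgeR called 0 genes (2066, 2145 and 2103 higher and 1490, 1452 and 1601 lower at an unadjusted p under 0.05; the smallest adjusted p was 0.0619, 0.0511 and 0.063), without iron negative 5L 26 and 12, and without iron positive 4R 399 and 214. The cause was not tested. Estimated counts reached at most 327 for Slc30a4 and 117 for Mt3 in any library.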
